A study of Mus musculus with 21 samples.

Results

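The effect of streptozotocin (STZ) diabetes on gene expression in mouse hindlimb muscle was measured over both genotypes of the study together. All 21 libraries of the series entered, 11 from STZ mice and 10 from untreated mice, and the STZ effect was the STZ coefficient of 1 additive model that also held genotype and run of library codes. A run is a stretch of consecutive codes in the library titles. The titles show 6 runs, which the labels do not call batches.

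STZ is a toxin taken up by the insulin-producing beta cells of the pancreas, and its injection is a common model of insulin-deficient diabetes. Muscle that receives little insulin takes up less glucose, relies more on fatty acids and loses protein. Fatty acids entering the fibre activate the nuclear receptors of the PPAR family, which turn on genes of fatty acid handling. FoxO transcription factors are kept out of the nucleus by insulin signalling and enter it when insulin falls, where they act on genes of protein degradation and of defence against stress.

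The 4 groups were FoxOTlox (floxed Foxo1, Foxo3 and Foxo4, untreated, n = 4 libraries), STZFoxOTlox (the same floxed genotype with STZ, n = 5), FoxOTKO (triple knockout, untreated, n = 6) and STZFoxOTKO (triple knockout with STZ, n = 6). Knockouts carried a Cre recombinase under the skeletal actin promoter ACTA1, which acts in muscle fibres, so that other cells of the tissue keep their FoxO genes. Floxed littermates served as controls, and all mice were on a mixed background of C57Blk6, C57Blk6J and 129. STZ was injected intraperitoneally at 150 mg/kg after a night without food, untreated mice received the citrate buffer, and females received 75 mg/kg more on day 3. Diabetic mice were used if their random blood glucose stayed above 300 mg/dL, so the STZ groups are animals selected for hyperglycaemia. RNA came from quadriceps and gastrocnemius powdered together, and the labels give neither age nor sex of a library, nor which animal it came from. In every library, the X-inactivation RNA Xist had at most 2 counts and the Y-linked gene Ddx3y at least 150. The p-values therefore measure the spread between libraries.

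Foxo1 and Foxo4 matched the genotype labels. In the same model, knockout against floxed libraries gave log2 fold changes of -2.08 ± 0.18 (SE) for Foxo1 and -4.61 ± 0.14 for Foxo4, with edgeR adjusted p of 7.17e-07 and 1.53e-14. Foxo3 differed by 0.39 ± 0.16 (adjusted p = 0.118), so its total count carries no mark of the deletion. None of the 3 genes passed the test for STZ. Muscle markers were abundant in every library. Ckm, muscle creatine kinase, had median CPM (read counts scaled to a common library size) of 11734 in untreated and 9967 in STZ libraries, the fast myosin Myh4 had 62419 and 62748, and neither passed the test for STZ (Ckm -0.30 ± 0.18, adjusted p = 0.323, lower in 8 of 8 within-run pairs). Total counts were 2951290 to 7687823 in untreated and 3377613 to 7676700 in STZ libraries. Libraries 4, 8 and 15 (STZFoxOTKO) and 6, 16 and 20 (FoxOTKO) had the highest macrophage marker levels, and libraries 17 (STZFoxOTlox) and 18 (STZFoxOTKO) had low levels of fast-fibre and glycolytic genes. The total and the counts of glycolytic, interferon, antigen presentation and matrix genes are given with and without 17 and 18. They are also given with and without 4, 15, 16 and 20. Counts of the other lists are not given in these settings. Libraries 17 and 18 were also among the lowest in complex I and tendon marker levels. Libraries 6 and 8 were left out only singly or with their run.

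STZ changed a minority of the muscle transcriptome. Of 12658 genes tested, 976 (7.71%) passed an adjusted p of 0.05 in edgeR's quasi-likelihood test. The number depended on the libraries and the tool: it was 417 without library 16, 238 without run C and 1502 with DESeq2. Higher expression with STZ was found for 395 genes (3.12%) and lower expression for 581 (4.59%). Most changes were modest: 217 genes (1.71%) changed by at least 2-fold, 86 of them higher and 131 lower. Genes that rose had a median log2 fold change of 0.65 and genes that fell one of -0.69, while the median of all tested genes was 0.01. The higher share of the calls was 40.47%, and it was 52.43% when run was left out of the model.

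Library-by-library separation was rarer than passing the test. Only 9 genes (0.0711%) had all 11 STZ libraries on one side of all 10 untreated ones. Acot1, Acot2, Chrna2 and Mmrn1 lay entirely higher (0.0316% of tested genes), and Foxo6os, Hist2h2be, Lmod3, Rmi2 and Tnfrsf21 lay entirely lower (0.0395%). These 9 were singled out after their values were seen. Within runs, 8 pairs of an STZ and an untreated library of the same genotype could be formed. In the knockout pair of run C, the mean of STZ libraries 11 and 12 stood for the STZ library. The STZ library was higher in 8 of 8 pairs for 288 genes (2.28%) and lower in 8 of 8 for 451 (3.56%).

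The call of each gene named by rule was repeated in 37 other settings, which left out each library and each run in turn and changed scaling, filter, model terms or tool. A call described as kept in every setting passed in all 37. Counts of calls in the gene lists below stand beside shares of 3.12% higher and 4.59% lower over all tested genes. The lists share genes, so their counts are not separate results. Fabp3, Plin5, Cd36, Acadl and Slc25a20 count as PPAR targets and again under fatty acid uptake or beta-oxidation. Cat counts under PPAR, FoxO and antioxidant genes, and Eif4ebp1 under insulin signalling and FoxO. Sdhb and Sdhc count under respiratory complexes and the citric acid cycle, and Col15a1 under matrix and fibroblast genes.

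A pair of acyl-CoA thioesterase genes rose, Acot1 and Acot2. Acot1 encodes a cytosolic enzyme that splits fatty acyl-CoA into free fatty acid and CoA, and it lies on chromosome 12 (GRCm38, 84009490 to 84018371). Untreated libraries had 0.418 to 1.72 CPM of Acot1 (median 1.15) and STZ libraries 8.28 to 34.9 CPM (median 21.4). The lowest STZ library thus lay above the highest untreated library in both genotypes. The log2 fold change was 4.17 ± 0.26 (adjusted p = 9.13e-09).

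Acot2, its mitochondrial relative, lies beside it on chromosome 12 (83987861 to 83993873). Untreated libraries had 7.74 to 23.8 CPM of Acot2 (median 13.8) and STZ libraries 38 to 192 CPM (median 102). Again no library of one treatment reached the range of the other, and the log2 fold change was 2.40 ± 0.19 (adjusted p = 3.57e-07). Both genes are near-identical in sequence, so the counting could have split reads between them and the size of each increase is uncertain.

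**Figure D1:**
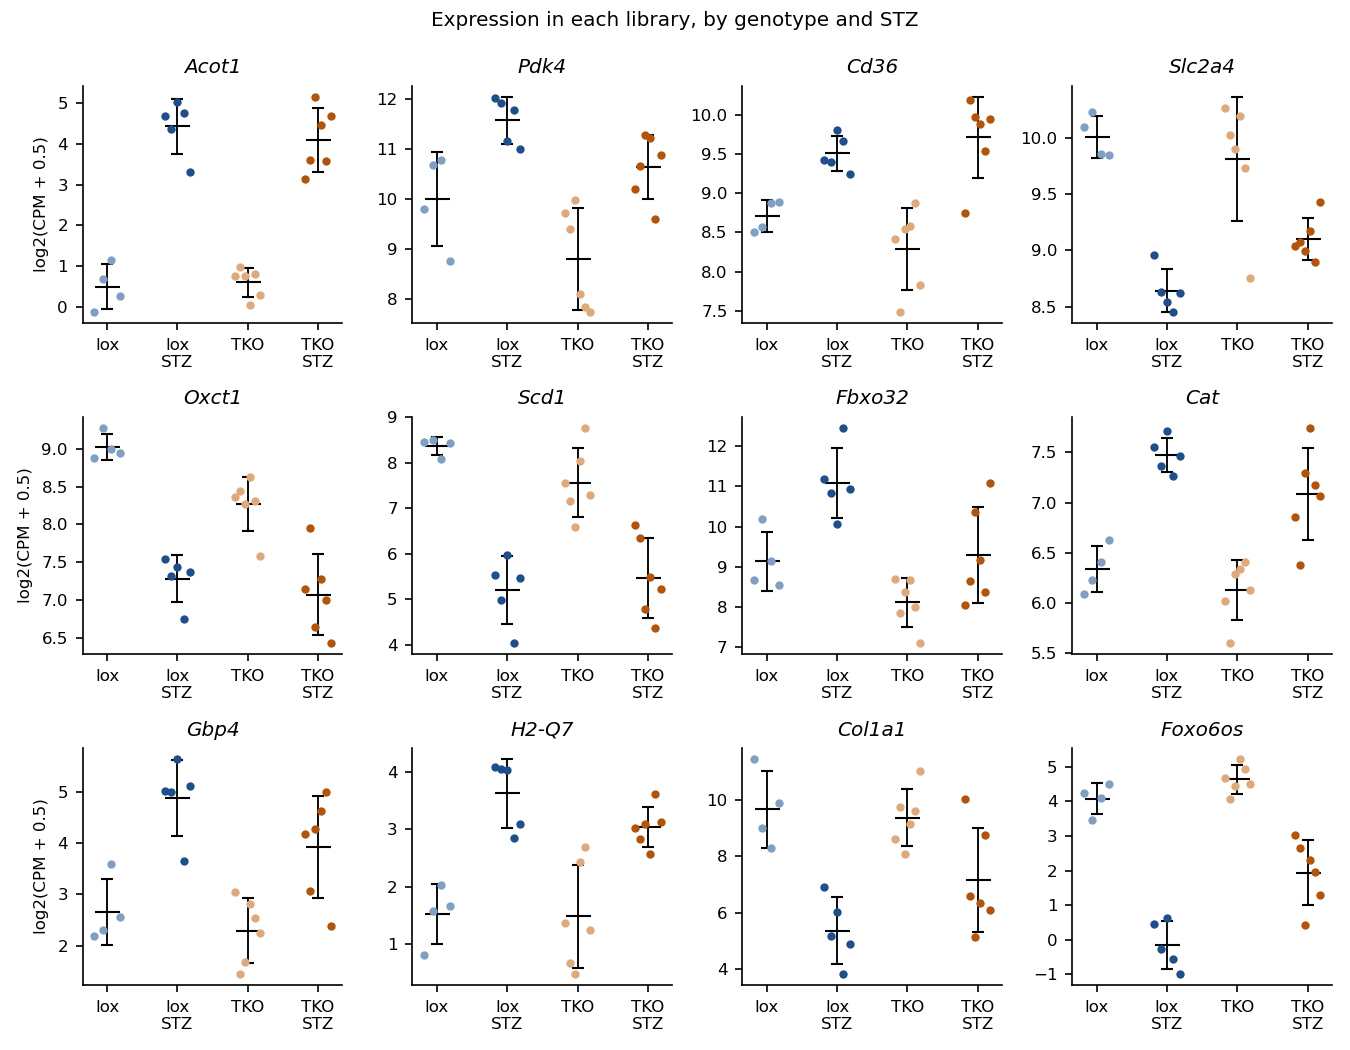
Expression of 12 genes in each library as log2(CPM + 0.5), with floxed (lox) and triple knockout (TKO) libraries, untreated and STZ, side by side; points are libraries, bars are means ± SD (n = 4, 5, 6 and 6). Acot1 rises from a median of 1.15 to 21.4 CPM without overlap, Slc2a4, Oxct1 and Scd1 fall, and Fbxo32 spreads over a wide range in both STZ groups.

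Of 25 tested PPAR target genes, 10 rose and none fell, and the median log2 fold change of the list was 0.45. Angptl4, a secreted inhibitor of lipoprotein lipase, had 3.04 to 17.3 CPM (median 9.09) in untreated and 12.3 to 48.9 CPM (median 32.2) in STZ libraries, a log2 fold change of 1.76 ± 0.26 (adjusted p = 0.000682). Pdk4, the kinase that switches off pyruvate dehydrogenase and so spares glucose, had 212 to 1754 CPM (median 764) without STZ and 778 to 4200.0 (median 2282) with it. The ranges overlapped: for Pdk4, STZFoxOTKO libraries 4, 8 and 15 lay among the higher untreated libraries. In all 8 within-run pairs the STZ library was higher for both genes. The change of Pdk4 was 1.68 ± 0.20 (adjusted p = 6.53e-05), and both calls were kept in every setting. Averaged over the list, no STZ library (0.10 to 0.80) reached down to the untreated libraries (-0.80 to -0.10). These levels are on the log2 scale, each gene centred on its mean. The list holds Acot1 and Acot2, and its members were chosen with earlier results of these data known. Whether the levels separate without these 2 genes was not tested. Ppara, which encodes PPAR alpha, one of the receptors of this family, did not pass over all libraries. It had medians of 15.6 and 9.25 CPM, a log2 fold change of -0.78 ± 0.24 and an adjusted p of 0.0506. Ppara passed in floxed libraries (-1.40 ± 0.33, adjusted p = 0.0314) and not in knockouts (-0.31 ± 0.28, 0.606), with an interaction p of 0.0209 (adjusted 0.866).

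Of 22 genes that bring fatty acids into the fibre or store them in droplets, 4 rose, 1 fell and 17 did not pass, with a median of 0.13. Fabp3, which carries fatty acids through the cytosol, ranged from 28.5 to 157 CPM (median 95.4) in untreated and from 61.1 to 744 CPM (median 198) in STZ libraries. Cd36, the fatty acid translocase of the cell surface, ranged from 178 to 475 CPM (median 377) and from 429.9 to 1171 CPM (median 813). Plin5, a protein that ties lipid droplets to mitochondria, ranged from 8.00 to 24.1 CPM (median 14.6) and from 13.9 to 64.9 CPM (median 34.6). In all 3 the ranges overlapped, for Cd36 only between the highest untreated and the lowest STZ values, and the STZ library was higher in 8 of 8 pairs. Log2 fold changes were 1.52 ± 0.18 for Fabp3 (adjusted p = 6.59e-05), 1.09 ± 0.18 for Cd36 (0.00153) and 1.25 ± 0.19 for Plin5 (0.000661). The transporter Slc27a1 rose by 0.97 ± 0.17 (adjusted p = 0.00207).

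Of 36 beta-oxidation genes 9 rose and 1 fell, and the median was 0.33. Acadl, which starts the oxidation of long-chain acyl-CoA, had 73.5 to 194 CPM (median 136) in untreated and 170.1 to 449 CPM (median 263) in STZ libraries, with overlap only at the edge. Its log2 fold change was 1.15 ± 0.14 (adjusted p = 6.59e-05). Ech1 and Eci2, which reshape double bonds of unsaturated fatty acids, rose by 0.99 ± 0.13 (adjusted p = 0.000181) and 0.83 ± 0.13 (0.00117). Cpt1b, which loads fatty acids for entry into mitochondria, had medians of 5.11 and 7.52 CPM and did not pass (log2 fold change 0.34 ± 0.17, adjusted p = 0.221). The count of beta-oxidation genes that rose was 4 without run in the model and 4 without run C, whose libraries are 1 FoxOTlox, 1 FoxOTKO and 2 STZFoxOTKO.

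Fat synthesis moved the other way at 2 of its 21 genes, with none higher and a list median of -0.28. Scd1, the desaturase that makes monounsaturated fatty acids, had 95.1 to 436 CPM (median 266) in untreated libraries and 15.8 to 98.1 CPM (median 43.8) with STZ. Only the highest STZ library reached the lowest untreated one, and the STZ library was lower in 8 of 8 pairs (log2 fold change -2.53 ± 0.35, adjusted p = 0.000621). Fasn, fatty acid synthase, fell by 1.27 ± 0.28 (adjusted p = 0.0141), a call lost without library 16 (0.0573). Acaca, which makes malonyl-CoA, had a log2 fold change of 0.04 ± 0.26. In cholesterol synthesis 1 of 22 genes rose and 2 fell, among them Mvk, mevalonate kinase, by 0.83 ± 0.15 (adjusted p = 0.00296).

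The transcript of the insulin-regulated glucose transporter fell. Slc2a4 (GLUT4) had 432 to 1234 CPM (median 999) in untreated and 350.5 to 691 CPM (median 498) in STZ libraries. FoxOTKO library 20, at 432 CPM, was the 1 untreated library inside the range of the STZ libraries. The log2 fold change was -1.04 ± 0.16 (adjusted p = 0.000682), and the STZ library was lower in 8 of 8 pairs. Hk2, the hexokinase that traps glucose, had medians of 588 and 419.9 CPM and did not pass (-0.47 ± 0.21, adjusted p = 0.177). Of 21 tested genes of glucose uptake and glycogen, 1 rose and 2 fell, with a median of 0.10.

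Glycolysis had 7 of 22 genes lower, 1 higher and a median of -0.37. Pkm, pyruvate kinase, ranged from 2410.4 to 6815 CPM (median 3918) in untreated and from 1002 to 4433 CPM (median 2482) in STZ libraries, a wide overlap with the STZ library lower in 8 of 8 pairs (log2 fold change -0.70 ± 0.15, adjusted p = 0.0101). Eno1 fell by 0.96 ± 0.21 (adjusted p = 0.0115). The 1 gene that rose, Fbp2, encodes the muscle fructose bisphosphatase, which runs against glycolysis. Its medians were 35.7 and 120.0 CPM (log2 fold change 1.74 ± 0.33, adjusted p = 0.00624, and 0.0598 without run C). The number of lower glycolytic genes depended on the model and the libraries: 1 without run in the model, 4 without libraries 17 and 18, 3 without libraries 4, 15, 16 and 20, and 0 without run C.

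The transcript of the entry enzyme of ketone body use fell. Oxct1, which activates acetoacetate for oxidation, had 191 to 620.0 CPM (median 371) in untreated and 85.8 to 246 CPM (median 154) in STZ libraries. The untreated library at 191 CPM was again library 20, and apart from it all untreated libraries exceeded all STZ libraries. The log2 fold change was -1.41 ± 0.15 (adjusted p = 4.12e-05), with the STZ library lower in 8 of 8 pairs. In the list of 12 genes, Slc16a3, a lactate and ketone transporter, also fell (-0.79 ± 0.21, adjusted p = 0.0273, and up to 0.0722 without library 7, 9, 11, 13 or 16), none rose, and the median was 0.08.

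Breakdown of branched-chain amino acids had 7 of 23 genes lower, none higher and a median of -0.26. Ivd, which oxidises the leucine product isovaleryl-CoA, had 95.8 to 234 CPM (median 178) in untreated and 66.9 to 132 CPM (median 92.3) in STZ libraries. Bcat2, the transaminase of the first step, had 39.0 to 97.3 CPM (median 57.4) and 22.3 to 62.8 CPM (median 31.6). Both genes overlapped between treatments and were lower with STZ in 8 of 8 pairs. Log2 fold changes were -0.86 ± 0.12 for Ivd (adjusted p = 0.000465) and -0.82 ± 0.12 for Bcat2 (0.000506). Pccb, a subunit of propionyl-CoA carboxylase, fell by 0.65 ± 0.12 (adjusted p = 0.0031).

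Calls among nuclear genes of the respiratory chain were all in the lower direction. Of 36 tested complex I genes 8 fell and none rose, and all 36 had negative log2 fold changes with a median of -0.43. Complexes II to V had 12 of 41 lower and none higher (median -0.42), and the citric acid cycle 5 of 21 lower and none higher (median -0.31). The 14 tested genes encoded in mitochondrial DNA gave no call and a median of -0.17.

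Atp5g3, a subunit of the ATP synthase rotor, had 523 to 811 CPM (median 598) in untreated and 170.1 to 594 CPM (median 377) in STZ libraries. Mdh2, mitochondrial malate dehydrogenase, had 341 to 809 CPM (median 535) and 196 to 500.1 CPM (median 299.8). Values of both genes overlapped, and the STZ library was lower in 8 of 8 pairs. Log2 fold changes were -0.64 ± 0.13 for Atp5g3 (adjusted p = 0.00789) and -0.66 ± 0.14 for Mdh2 (0.00872), kept in every setting. Most other respiratory calls were not: without run in the model 0 complex I genes and 2 of complexes II to V passed, and without run C 0 and 3 did. List medians were negative in these settings too. Per library, complex I levels ranged from -0.29 to 0.98 in untreated and from -1.37 to 1.21 in STZ libraries, so a part of the STZ libraries lay as high as untreated ones. Among regulators, the coactivator Ppargc1a had medians of 71.0 and 51.8 CPM and did not pass (-0.55 ± 0.19, adjusted p = 0.0838).

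**Figure D2:**
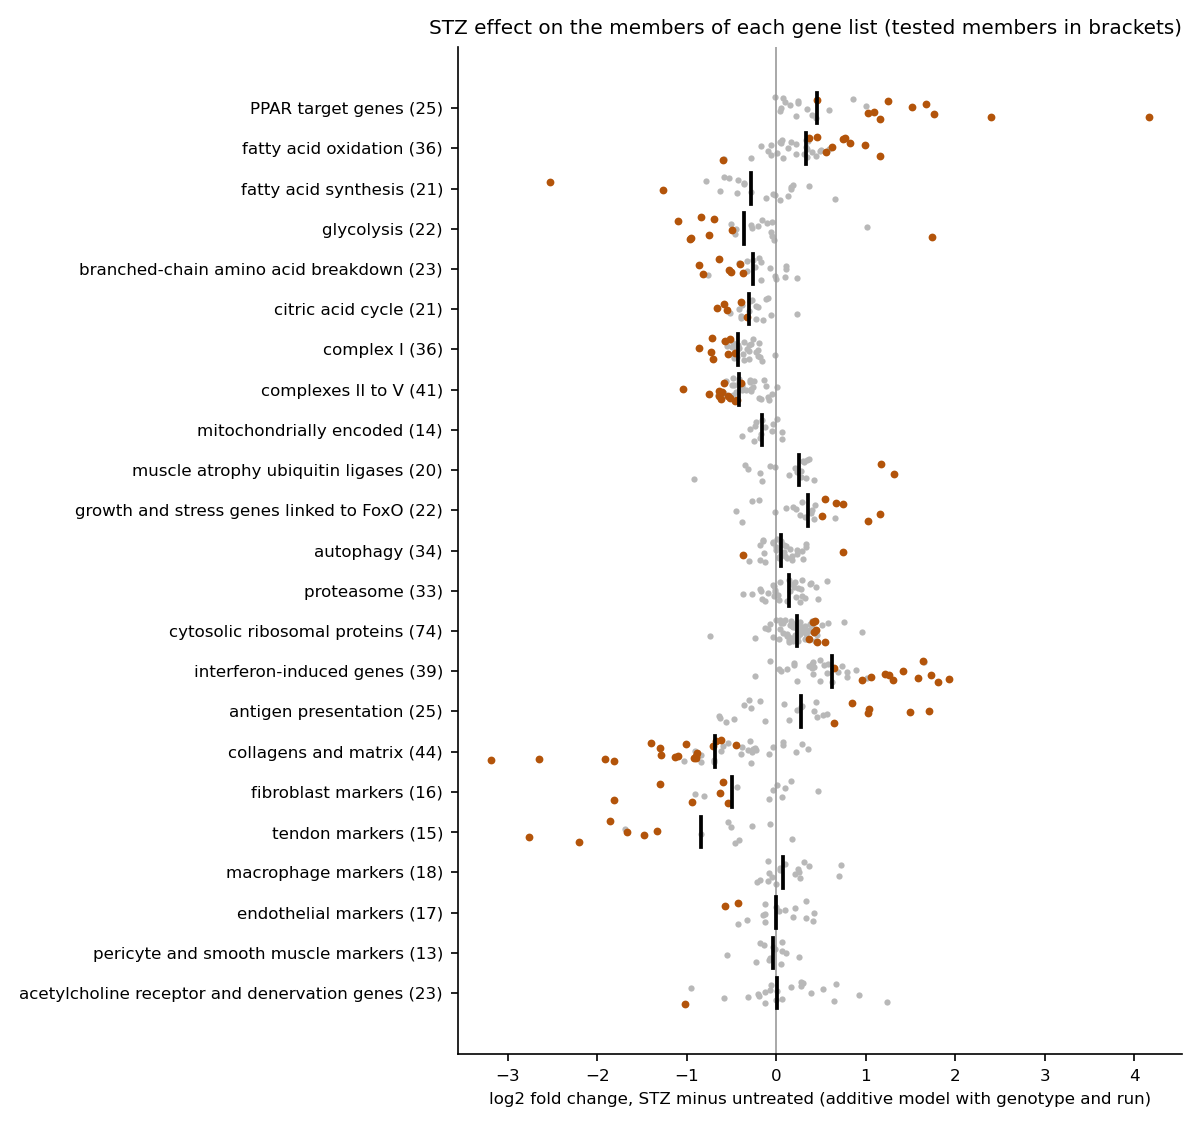
Log2 fold change with STZ of each tested member of the gene lists named at the left (number tested in brackets), orange where the adjusted p was under 0.05 and grey where it was not; black bars are list medians. PPAR targets (median 0.45) and interferon-induced genes (0.62) lie to the right, complex I (-0.43), collagens and matrix (-0.68) and tendon markers (-0.85) to the left.

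Of 20 muscle atrophy ligases 2 rose, Fbxo32 and Trim63, and none fell (list median 0.25). Fbxo32 (atrogin-1), which marks proteins of the fibre for degradation, had 137 to 1159.6 CPM (median 389.8) in untreated and 266 to 5602 CPM (median 1319) in STZ libraries. Trim63 (MuRF1), which targets myofibrillar proteins, had 170.0 to 1273 CPM (median 402) and 253 to 8028 CPM (median 1343). The ranges overlapped widely, and libraries 17 and 18 held the highest Trim63 values. Log2 fold changes were 1.32 ± 0.35 for Fbxo32 (adjusted p = 0.0301) and 1.17 ± 0.34 for Trim63 (0.0454). Both calls lay near the threshold: that of Fbxo32 was lost when library 1, 9, 10, 11, 16, 19 or 21 was left out (adjusted p up to 0.0812) and also without 17 and 18 together, and that of Trim63 was lost without any 1 of 14 libraries, namely 1, 3, 5, 6, 8, 9, 10, 11, 15, 16, 17, 19, 20 and 21 (up to 0.106). The proteasome had no call among 33 genes (median 0.14), autophagy 1 higher and 1 lower among 34, and the lysosome 1 higher among 29. Of all tested genes 3.12% were higher and 4.59% lower, so the autophagy and lysosome counts lie near these shares.

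Genes of growth control and stress resistance that FoxO factors can act on had 6 of 22 higher and none lower, with a median of 0.36. Cat, catalase, which removes hydrogen peroxide, had 47.9 to 98.0 CPM (median 76.2) in untreated and 82.8 to 214 CPM (median 157) in STZ libraries, with an overlap at the edge and a log2 fold change of 1.02 ± 0.12 (adjusted p = 6.53e-05). In floxed and knockout libraries taken apart, Cat changed by 1.15 ± 0.19 and 0.93 ± 0.16. Gpx3, a secreted glutathione peroxidase, is in the list of antioxidant genes and not in the list linked to FoxO. It rose by 1.19 ± 0.23 (adjusted p = 0.00564), with 1.67 ± 0.34 in floxed and 0.84 ± 0.29 in knockout libraries (edgeR interaction, unadjusted p = 0.0803, adjusted p = 0.966). Sesn1, an inhibitor of growth signalling through mTORC1, rose by 0.75 ± 0.16 (adjusted p = 0.00982, and 0.0522 without run B), with 1.15 ± 0.23 and 0.45 ± 0.19 (edgeR interaction, unadjusted p = 0.0292, adjusted p = 0.917). Among 27 antioxidant genes, 4 rose and 1 fell, with a median of 0.00.

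Insulin signalling genes had 3 of 29 higher and 1 lower (median 0.22). Eif4ebp1, which holds back cap-dependent translation, had medians of 14.9 and 31.7 CPM (log2 fold change 1.15 ± 0.29, adjusted p = 0.0238). Its call was lost without library 5, 9, 11 or 21 (up to 0.061). Its log2 fold changes were 1.82 ± 0.39 in floxed and 0.65 ± 0.33 in knockout libraries (edgeR interaction, unadjusted p = 0.0334, adjusted p = 0.941). Irs2, the insulin receptor substrate, did not pass (0.22 ± 0.26, adjusted p = 0.644). The glucocorticoid-induced genes had 3 of 22 higher, among them the transcription factor Cebpd by 1.07 ± 0.24 (adjusted p = 0.0129), and a median of 0.04.

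Part of the interferon-induced genes and of the genes of antigen presentation rose with STZ. Interferons signal to transcription factors that bind short elements in the promoters of their targets, the interferon-stimulated response element (ISRE) and the gamma-activated site (GAS). Of 39 tested genes 12 rose and none fell (median 0.62), and of 25 genes of antigen presentation 6 rose and none fell (median 0.27). Promoters of 4 of the genes that rose are shown because they carry the ISRE core. The sequences are RefSeq windows upstream of the start site (GRCm38.p6), 60 bases each on the plus strand, 5′ to 3′, with the ISRE core in capitals (the first where a window holds more than 1); the core was searched on both strands as TTTC, 2 free bases and TTTC.

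Gbp5, chr3:142496744-142496803, core beginning 165 bases before the start site:
Gbp5: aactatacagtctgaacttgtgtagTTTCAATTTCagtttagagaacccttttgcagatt
Gbp3, chr3:142559974-142560033, core beginning 45 bases before the start site:
Gbp3: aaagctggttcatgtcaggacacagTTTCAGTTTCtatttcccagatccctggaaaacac
Gbp2, chr3:142620579-142620638, core beginning 59 bases before the start site:
Gbp2: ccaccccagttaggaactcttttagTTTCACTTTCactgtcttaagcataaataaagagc
Ifit1, chr19:34640760-34640819, core beginning 104 bases before the start site:
Ifit1: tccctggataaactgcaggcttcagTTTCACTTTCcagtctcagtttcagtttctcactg

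The core was present in 18 of 30 interferon-list genes with a RefSeq window, and in 6 of the 9 among them that rose. Of all 32851 windows 3.443% held it, and of the 9698 tested genes with a window 3.671%. GAS, searched as TTCNNGGAA on both strands, was present in 10 of the 30 genes and in 2 of the 9 that rose. It stood in 4.813% of all windows and in 5.362% of the tested genes with a window. Among antigen presentation genes with a window, the ISRE core was present in 5 of 19 and in 1 of the 5 that rose. GAS was present in 2 of these 19 and in 0 of the 5. ISRE and GAS matches stood together in 7 of the 56 windows of the interferon and antigen presentation genes and shared bases in 1. The direct repeat bound by PPAR was searched on both strands as 2 copies of AGGNCA with 1 free base between them. It stood in 0.381% of windows and 0.268% of tested genes with a window, and matched none of 20 PPAR target genes. At so low a share few matches or none would be found in any 20 genes, so this result says nothing about PPAR. The forkhead site GTAAACA (3.65% of windows, 3.062% of tested genes) matched 2 of 19 genes linked to FoxO. Only short windows at the start site were searched, and sites farther away were not seen. A match says only that these letters stand in the window.

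Gbp5, a guanylate-binding protein of interferon responses, had 1.79 to 5.96 CPM (median 3.34) in untreated and 1.94 to 25.8 CPM (median 11.5) in STZ libraries. Gbp4 had 2.21 to 11.5 CPM (median 4.89) and 4.69 to 49.5 CPM (median 24.1). Cd274 (PD-L1), a brake on T cells that interferon induces, had 0.596 to 7.04 CPM (median 3.40) and 3.64 to 40.3 CPM (median 14.4). In all 3, STZFoxOTKO libraries 8 and 18 were the only STZ libraries inside the untreated range, and STZ was higher in 7 of 8 pairs. Log2 fold changes were 1.58 ± 0.30 for Gbp5 (adjusted p = 0.00429, and 0.0615 without run C), 1.93 ± 0.27 for Gbp4 (0.000383) and 1.81 ± 0.29 for Cd274 (0.00112). Gbp4 overlaps Gbp9 on the same strand, so reads of these genes may be shared.

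Gbp3, Gbp2 and Ifit1, the other genes whose promoters are printed, rose by 1.30 ± 0.29 (adjusted p = 0.0111), 0.96 ± 0.23 (0.0178) and 1.21 ± 0.32 (0.0275). The call of Ifit1 was lost without library 1, 5, 12, 13 or 21 (up to 0.0704). Gbp3 and Ifit1 were picked after their values were seen. The GTPases Irgm1 and Ifi47 rose by 0.65 ± 0.12 (adjusted p = 0.00414) and 1.72 ± 0.34 (0.00584).

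In antigen presentation, class I genes of the H2-Q region on chromosome 17 rose. H2-Q7 had 0.894 to 5.94 CPM (median 2.30) in untreated and 5.47 to 16.5 CPM (median 8.02) in STZ libraries, with the STZ library higher in 8 of 8 pairs. Library 12 (STZFoxOTKO) was the only STZ library below the highest untreated one. The log2 fold change was 1.71 ± 0.28 (adjusted p = 0.00149), and H2-Q6 and H2-Q4 rose by 1.49 ± 0.23 (0.00102) and 1.03 ± 0.18 (0.0018). These genes are close copies of each other and the mice are of mixed strain, so the split of reads between them is uncertain. B2m, the shared light chain of class I molecules, rose by 0.64 ± 0.17 (adjusted p = 0.0294), a call lost without library 1, 3, 5, 6, 7, 10 or 13 (up to 0.0684).

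The counts in both lists varied with the libraries. Mean levels of the interferon list were -0.87 to 0.34 in untreated and -0.75 to 1.15 in STZ libraries, with STZFoxOTKO library 18 the lowest of the latter. Of the interferon genes, 17 rose without libraries 17 and 18, 17 without libraries 4, 15, 16 and 20, and 5 without run C. Antigen presentation had 9, 9 and 3 genes higher in the same settings. Macrophage markers had no call among 18 genes and a median of 0.07. Their summed level ranged from 201.1 to 2144 CPM in untreated and from 225.6 to 2640 CPM in STZ libraries, and no marker was at 0 in all libraries. The macrophage marker level entered an alternative model as a covariate. Counts of the interferon and antigen presentation lists in that model are not given here, and the part of macrophages in them was not tested. Neutrophil and lymphocyte markers were mostly too low to test (3 of 12 and 3 of 16 tested). In bulk tissue, a change in the number of cells of a type cannot be told apart from a change of RNA per cell.

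**Figure D3:**
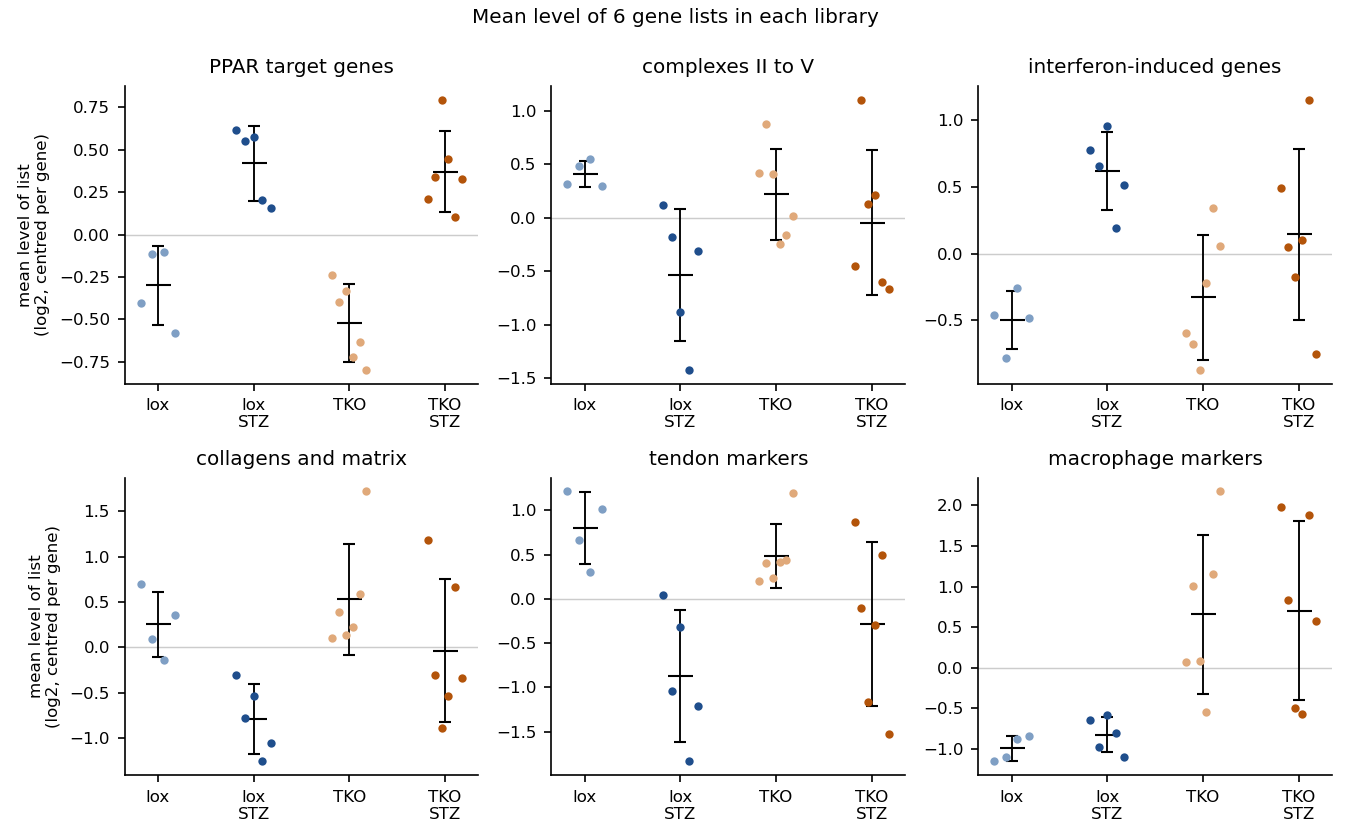
Mean level of 6 gene lists in each library (log2 CPM with each gene centred on its mean over libraries), by genotype (lox, TKO) and STZ; points are libraries and bars are means ± SD. PPAR target levels, from a list that holds Acot1 and Acot2, separate by STZ (-0.80 to -0.10 against 0.10 to 0.80). Macrophage marker levels reach 2.18 in knockouts and lie between -1.16 and -0.59 in all floxed libraries.

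Of 44 tested collagens and matrix genes 18 fell and none rose (median -0.68). Fibroblast markers had 6 of 16 lower (median -0.49) and tendon markers 6 of 15 lower (median -0.85), none higher in either. Col1a1, the main chain of type I collagen, had 272 to 2803 CPM (median 677) in untreated and 13.6 to 1032 CPM (median 68.4) in STZ libraries. STZFoxOTKO libraries 4 and 15 held the highest STZ values and lay within the untreated range. The log2 fold change was -3.19 ± 0.55 (adjusted p = 0.00331), with 7 of 8 pairs lower.

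Col15a1, a basement membrane collagen, had 47.7 to 132 CPM (median 71.8) in untreated and 8.36 to 50.02 CPM (median 20.3) in STZ libraries. Ltbp4, which anchors latent TGF-beta in elastic fibres, had 111 to 221 CPM (median 140.1) and 20.4 to 116 CPM (median 56.9). In both genes only the edges overlapped, and the STZ library was lower in 8 of 8 pairs. Log2 fold changes were -1.82 ± 0.23 for Col15a1 (adjusted p = 0.000183) and -1.40 ± 0.16 for Ltbp4 (6.16e-05). The basement membrane pair Col4a1 and Col4a2 fell by 0.92 ± 0.16 (adjusted p = 0.0018) and 0.90 ± 0.16 (0.00242). Sparc, a collagen-binding matrix protein, fell by 1.40 ± 0.22 (adjusted p = 0.00112).

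Among the tendon markers, Cilp2, a cartilage and tendon matrix protein, had 10.7 to 84.1 CPM (median 23.3) in untreated and 0.545 to 19.0 CPM (median 3.03) in STZ libraries, a log2 fold change of -2.76 ± 0.37 (adjusted p = 0.000482). Chad, chondroadherin, fell by 2.21 ± 0.42 (adjusted p = 0.00654). Calls of Col1a1, Col15a1, Ltbp4, Col4a1, Col4a2, Sparc, Cilp2 and Chad were kept in every setting. The number of lower matrix genes was 12 without run in the model, 9 without libraries 17 and 18, 25 without libraries 4, 15, 16 and 20, and 6 without run C.

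Markers of other cell types were described beside this. Pdgfra, a surface receptor that defines fibroblast-like cells of muscle, had medians of 72.8 and 69.8 CPM and a log2 fold change of 0.01 ± 0.16 (adjusted p = 0.984), while Pi16, another fibroblast marker, fell by 1.31 ± 0.30 (0.0178). Endothelial markers had 2 of 17 lower, among them the receptor Tie1 by 0.43 ± 0.09 (adjusted p = 0.00654), and a median of -0.01. Pericyte and smooth muscle markers had no call among 13 genes (median -0.04). Tendon marker levels reached from 0.20 to 1.22 in untreated and from -1.84 to 0.87 in STZ libraries. The part of tendon tissue in the matrix counts was not tested.

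Several genes outside these lists separated the treatments. Foxo6os is annotated as an antisense gene beside Foxo6, a FoxO family member that the knockout does not target. It had 10.6 to 37.2 CPM (median 21.6) in untreated and 0 to 7.63 CPM (median 1.04) in STZ libraries. No library overlapped, and the STZ values were 0 to 1.04 CPM in STZFoxOTlox and 0.852 to 7.63 in STZFoxOTKO. The fitted log2 fold change of Foxo6os was -3.42 ± 0.40 (adjusted p = 0.00015). Foxo6, which lies next to it on the opposite strand (chromosome 4, 120267079 to 120287349, against 120291350 to 120303892), fell by 2.14 ± 0.36 (adjusted p = 0.00149). Whether the counting used strand is not stated.

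Cacna2d4, an auxiliary calcium channel subunit, had 5.85 to 17.1 CPM (median 11.1) in untreated and 0.364 to 7.31 CPM (median 2.19) in STZ libraries. The STZFoxOTKO library 4 was the 1 STZ library inside the untreated range, with a log2 fold change of -2.36 ± 0.25 (adjusted p = 3.87e-05). Lmod3, an actin nucleator of the thin filament, had 61.0 to 105 CPM (median 78.1) and 17.3 to 59.8 CPM (median 40.7), a fall of 0.91 ± 0.14 (adjusted p = 0.000796). Chrna2, an acetylcholine receptor subunit gene, had 0.145 to 1.79 CPM (median 0.525) and 2.16 to 6.57 CPM (median 3.82), a rise of 2.79 ± 0.32 (adjusted p = 6.53e-05). The list of acetylcholine receptor and denervation genes, which does not hold Chrna2, gave no increase that passed among 23 tested (median 0.01). In that list Ache, acetylcholinesterase, fell by 1.02 ± 0.17 (adjusted p = 0.00156). Rmi2, part of a complex that resolves DNA junctions, had 1.67 to 4.69 CPM and 0 to 0.910 CPM (-2.90 ± 0.34, adjusted p = 6.53e-05). Tnfrsf21, a death receptor, had 59.0 to 79.3 CPM and 27.1 to 49.3 CPM (-0.73 ± 0.11, adjusted p = 0.000465). The remaining 2 separated genes changed by less than 2-fold: Hist2h2be, a histone gene, fell by 0.94 ± 0.18 (adjusted p = 0.00433) and Mmrn1, an adhesive glycoprotein, rose by 0.88 ± 0.22 (0.0217, and up to 0.0614 without library 16 or 21).

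Clock genes had 2 of 19 higher and 1 lower (median 0.19), and the clock output Dbp fell by 1.08 ± 0.27 (adjusted p = 0.0246, and up to 0.0883 without library 7 or 16). Sampling times are not given in the labels. Smox, spermine oxidase, had 35.0 to 273 CPM (median 106) in untreated and 6.91 to 111 CPM (median 44.7) in STZ libraries and fell by 1.48 ± 0.30 (adjusted p = 0.00776). Tgfbr1, a TGF-beta receptor, rose by 0.69 ± 0.14 (adjusted p = 0.005). Ace, angiotensin-converting enzyme, fell by 1.02 ± 0.13 (adjusted p = 8.8e-05), and Rilp, which moves lysosomes, fell by 1.19 ± 0.13 (5.73e-05). Actc1, the cardiac actin of developing muscle, had medians of 328 and 63.1 CPM and fell by 2.94 ± 0.64 (adjusted p = 0.0137). Its call was lost without libraries 17 and 18, without libraries 4, 15, 16 and 20, without run C or E, and without run in the model (up to 0.0754). Leptin (Lep), from fat cells, had medians of 3.56 and 0.324 CPM and fell by 2.53 ± 0.66 (adjusted p = 0.0288). That call was lost without library 5, 7, 11 or 16 (up to 0.084), while adiponectin (Adipoq), another fat-cell gene, had medians of 7.47 and 6.81 CPM and did not pass (adjusted p = 0.942).

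Of 74 cytosolic ribosomal protein genes 7 rose, against 3.12% of all tested genes, none fell, and the median was 0.24. Rpl10 had medians of 39.5 and 56.5 CPM (log2 fold change 0.54 ± 0.13, adjusted p = 0.0134). No ribosomal protein gene passed without run in the model, and pseudogenes of these genes could share their reads.

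An average over genotypes hides any difference between them, so both genotypes and their difference were fitted in a model of the 4 groups with run. STZ gave 245 calls (1.94%) in floxed libraries, 75 higher (0.593%) and 170 lower (1.34%), and 98 (0.774%) in knockouts, 45 higher (0.356%) and 53 lower (0.419%). Of the 976 genes of the average, 740 passed in neither genotype alone, and 975 had the same sign in both. The difference of the STZ effect between genotypes passed for 0 of 12658 genes in edgeR's quasi-likelihood test, with 652 (5.15%) at an unadjusted p under 0.05 and 14 calls by DESeq2. Without run in the model the difference of 1 gene passed, Ddah1, an enzyme that breaks down an inhibitor of nitric oxide synthesis, at 1.92 ± 0.30 (edgeR adjusted p = 0.0179, knockout minus floxed), and Ddah1 was also among the 14. The smaller number of calls in knockouts is therefore not shown to be a smaller effect. The order also turned: floxed and knockout libraries gave 375 and 404 calls with the macrophage covariate and 134 and 165 without library 17. With DESeq2 the order was kept, at 492 and 450 calls.

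**Figure D4:**
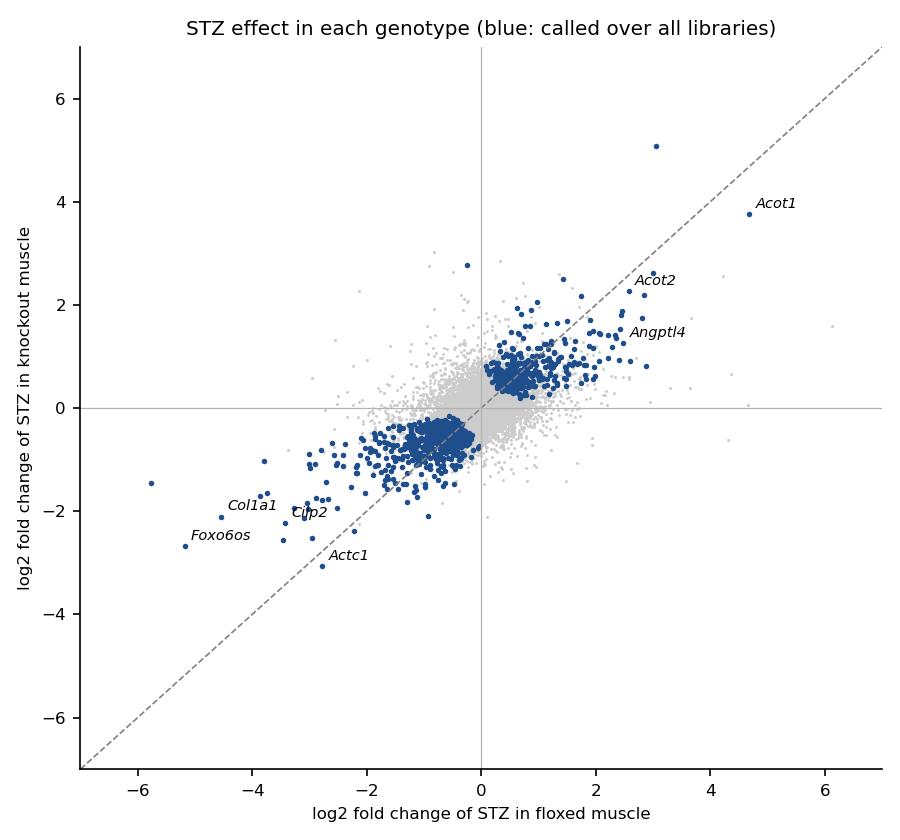
Log2 fold change with STZ in floxed (x axis) and triple knockout (y axis) libraries for each tested gene, blue where the gene passed over all libraries and grey where it did not; the dashed diagonal marks equal effects. Acot1 lies at 4.68 and 3.77, Foxo6os at -5.18 and -2.68 and Col1a1 at -4.55 and -2.10.

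Acot1 had log2 fold changes of 4.68 ± 0.39 in floxed and 3.77 ± 0.33 in knockout libraries, and Slc2a4 stood at -1.38 ± 0.23 and -0.79 ± 0.20. Interaction p-values of these genes were 0.118 and 0.0669 (adjusted 0.966 for both). Larger differences stood among genes that missed the adjusted threshold. Foxo6os had a log2 fold change of -5.18 ± 0.57 in floxed and -2.68 ± 0.39 in knockout libraries (difference 2.51 ± 0.73, unadjusted p = 0.00292, adjusted p = 0.606), and Col1a1 of -4.55 ± 0.66 and -2.10 ± 0.55 (difference 2.45 ± 0.82, unadjusted p = 0.00924, adjusted p = 0.842). Bcat2 stood at -0.43 ± 0.16 in floxed and -1.10 ± 0.13 in knockout libraries (difference -0.67 ± 0.21, unadjusted p = 0.00479, adjusted p = 0.739). Gbp5 stood at 2.41 ± 0.40 and 0.92 ± 0.35 (difference -1.49 ± 0.55, unadjusted p = 0.0133, adjusted p = 0.842). List medians in floxed and knockout libraries were 0.89 and 0.42 for interferon-induced genes, 0.58 and -0.02 for antigen presentation, -0.91 and -0.41 for collagens and matrix, and -1.63 and -0.33 for tendon markers. No list held a gene whose difference passed.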

How the data were processed

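RNA-seq read counts per Ensembl mouse gene were deposited by the authors without normalization; the submitters' processing notes name STAR, featureCounts and the build GRCm38.p4. Their versions, the strand setting and the treatment of multi-mapping reads are not given in the sources used. Of 46071 identifiers, 45143 matched a symbol of GENCODE mouse M21. Groups came from the labels. Counts were analysed with edgeR 4.0.16 in R 4.3.3: filterByExpr with the 4 groups kept 12658 genes, libraries were scaled by TMM, and a robust quasi-likelihood model held genotype, STZ and run. Tests were two-sided with Benjamini-Hochberg adjustment over all tested genes (threshold 0.05). Errors of fold changes are SE, taken as the size of the log2 fold change divided by the square root of F. Genotype effects and their difference came from a model of the 4 group means and run, with all libraries sharing 1 spread (biological coefficient of variation 0.270 in the additive model). CPM used TMM-scaled library sizes, and list levels log2 CPM with a prior count of 2.

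Every pair of libraries differed beyond counting noise (lowest chi-square divided by its degrees of freedom 8.61). Libraries of 1 run deviated together: the mean correlation of deviations from group means was 0.159 in 26 pairs against -0.0296 in 138 pairs of other runs. For the pooled comparison, counts of the 12658 tested genes were simulated from the fitted model, and 12434 of them passed the filter again and were tested. Known changes were put only on genes with a mean fitted count above 50. Of genes changed by 1.5-, 2-, 3- and 4-fold, 58, 98, 96 and 100% were recovered (50 genes each), with 11 false calls among 187. These recovery rates do not cover genes with fewer reads.

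Gene lists and members were chosen with earlier results of these data known, and lists are described without a set test. Named genes were core genes of muscle wasting and fuel use; among called genes whose mean log2 CPM reached 2 (predicted models and sex-linked genes excepted), the 10 highest and 10 lowest and the 6 of smallest p in each direction; and up to 4 called members of each list by p. Cpt1b, Acaca, Pdgfra, Adipoq, Ckm, Myh4, Foxo6, Gbp3 and Ifit1 fall outside the rule and were picked after their values were seen. So were the genes separated by library, except Acot1, Acot2 and Foxo6os, which the rule names. Some genes are not reported here. Alternatives were no run term, an equal-weight mean of both genotypes, RLE or upper-quartile scaling, no or a stricter filter (10 counts in every library of a group), DESeq2 1.42.0, a macrophage marker covariate, and leaving out each library, each run or the libraries that stood apart. Alternatives for the single-genotype effects were added after seeing the data.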

Additional observations from a re-analysis of the deposited data

Results flagged for a closer look

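For 98 genes of the text, the highest and lowest library of each group was compared with its neighbour by Dixon's ratio, which made 392 gene-by-group tests. A gap was flagged in 21, and chance alone flags about 5% of such tests. Each flag below gives the CPM of the library that stood apart and the range of the other libraries of its group.

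Library 17 (STZFoxOTlox) was low in 6 genes. It had 107 CPM of Oxct1 against 159 to 185, 66.9 of Ivd against 112 to 132, and 6.91 of Smox against 75.1 to 111. It also had 6.36 of Ache against 28.1 to 41.2, 21384 of Myh4 against 62991 to 86576, and 0 of Rmi2 against 0.260 to 0.324. Library 18 (STZFoxOTKO) was low in Lmod3, with 17.3 against 39.7 to 59.8, and high in Tgfbr1, with 237 against 79.7 to 109.

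Library 20 (FoxOTKO) had 432 CPM of Slc2a4 against 849.7 to 1234, 191 of Oxct1 against 307 to 394, and 170.0 of Trim63 against 309.6 to 409. It was high in Col4a1, with 319 against 171 to 203, and in Col4a2, with 189.6 against 129 to 145. Library 6 (FoxOTKO) had 7.00 of Foxo1 against 14.1 to 17.7 and 33.2 of Tgfbr1 against 64.7 to 85.5, and was high in Pi16, with 183 against 43.2 to 62.6, and in Cebpd, with 92.9 against 22.7 to 35.1.

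The remaining 4 flags were in other untreated libraries. Library 10 (FoxOTKO) had 0.596 CPM of Cd274 against 3.30 to 7.04. Library 9 (FoxOTlox) had 270.3 of Scd1 against 346 to 364. Library 13 (FoxOTKO) had 34.3 of Irs2 against 6.83 to 11.4, and library 2 (FoxOTKO) had 8.69 of Cpt1b against 4.22 to 5.16.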

How the results depend on the processing

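Signs were stable and counts were not. At least 973 of the 976 called genes were tested and kept their sign in every setting but the stricter filter, where 936 were tested and all kept it, and no named result changed sign while called. The total moved from 976 (395 higher, 581 lower) to 536 (281, 255) without run in the model, 646 (235, 411) with no filter, 1502 (699, 803) with DESeq2, 1503 (692, 811) with the macrophage covariate, 442 (199, 243) without libraries 17 and 18, and 466 (204, 262) without libraries 4, 15, 16 and 20. Without run B it was 631 (222, 409), without C 238 (78, 160), without D 574 (280, 294) and without E 460 (221, 239). Leaving out 1 library gave 417 to 1247 calls (189 to 509 higher, 228 to 738 lower); the total was 559 without library 1, 508 without 9, 574 without 11 and 417 without 16, and 251 genes were higher without 21. The interaction gave 1 call without run and 14 with DESeq2. Floxed calls (245) became 492 with DESeq2, 375 with the macrophage covariate, 402 without libraries 4, 15, 16 and 20, and 100, 62, 79, 109 and 71 without run A, B, C, D and F (76 to 302 leaving out 1 library). Knockout calls (98) became 18 without run in the model, 450 with DESeq2, 404 with the covariate, 41 without libraries 17 and 18, 19 without 4, 15, 16 and 20, and 38, 13, 20 and 41 without run B, C, D and E (25 to 242 leaving out 1 library). The cause was not tested, except that leaving out libraries leaves fewer samples. Pairing by replicate number was not used, since the library numbers are unique; the run term and the within-run pairs of the text take the place of a block. Genes at about 1 CPM, such as Acot1 in untreated libraries, rest on few reads.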
